A study of Mus musculus with 8 samples.

Results

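Nnt and 7 nuclear-encoded genes of mitochondrial redox metabolism, Idh2, Me3, Sod2, Txnrd2, Txn2, Prdx3 and Gpx1, were followed across 8 left ventricle libraries. The 8 genes were selected on a fixed list of names, out of 38293 gene identifiers in the deposited count table, and all 8 were among the 13972 genes with enough counts to be tested. Nnt was placed at the head of the list because its level differed more than 3-fold between libraries, so its spread is described and not tested. With a highest over lowest level of 3.27 it lay above that fold, and Gpx1, the next of the list, lay below it at 2.58.

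The libraries hold polyadenylated RNA from the left ventricle of C57BL/6J mice whose hearts underwent ischemia-reperfusion, an interruption and return of coronary flow. All mice received 2 injections of 10 µl of Upy-PEG, a supramolecular polymer hydrogel, into the heart muscle, and hearts were taken at day 3. The gel held no drug in the hydrogel group (4 libraries) and held antimiR-195, an oligonucleotide inhibitor of miR-195, in the antimiR-195 group (4 libraries). No uninjured or gel-free heart is part of the groups, and the labels give neither age nor the number of animals behind the libraries. Where p-values are given they therefore set a group difference against the spread between these libraries, which are not known to be separate animals.

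Mitochondria detoxify hydrogen peroxide with electrons from NADPH. The NADPH is made inside the organelle by nicotinamide nucleotide transhydrogenase (the product of Nnt), which uses the proton gradient to pass hydride from NADH to NADP+, and by NADP-dependent isocitrate dehydrogenase (Idh2) and malic enzyme (Me3). Superoxide dismutase (Sod2) turns superoxide into hydrogen peroxide, which is removed by peroxiredoxin 3 (Prdx3), recharged by thioredoxin 2 (Txn2) and thioredoxin reductase 2 (Txnrd2), and by glutathione peroxidase 1 (Gpx1). The C57BL/6J strain is known to carry a deletion of several Nnt coding exons, so these hearts are taken to lack working transhydrogenase. Gene-level counts do not show which exons the reads came from, and the GRCm38 assembly was itself built from C57BL/6J.

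Gpx1 and Txnrd2 encode selenoproteins, in which an in-frame UGA codon is read as selenocysteine at the active site. The coding stretches around that codon in the GENCODE M21 transcripts are shown because they mark the catalytic residue of both enzymes, with the codon, written TGA as in the annotation, in capitals.
Gpx1-201, codon 47 of 202 including the stop, chr9:108339451-108339453, GRCm38, plus strand: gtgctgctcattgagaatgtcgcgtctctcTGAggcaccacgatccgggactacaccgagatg
Txnrd2-215, codon 526 of 528 including the stop, chr16:18477772-18477774, GRCm38, plus strand: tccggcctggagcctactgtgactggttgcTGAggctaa
In Gpx1 the codon lies toward the start of the reading frame. In Txnrd2 it is the last but one amino acid codon.

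The drug under test acts on miR-195, so the 3′ UTRs of the 8 genes were searched for matches to its seed. The mature microRNA is shown with its seed, bases 2 to 8, in capitals (RefSeq, GRCm38.p6, chr11:70235062-70235082, plus strand).
mmu-miR-195a-5p: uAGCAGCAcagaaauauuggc
The single match of 7 or more bases lay in the 3′ UTR of Me3, at bases 1543 to 1549 of 2462 in Me3-202 (chr7:89853440-89853446, plus strand), and its 7 pairing bases are in capitals.
Me3-202: aagacaatTGCTGCTtatatcag
The longest annotated 3′ UTRs of the other 7 genes held 0 matches, and 28.5% of the 12874 tested genes with an annotated 3′ UTR held at least 1. For all genes alike, a match to bases 2 to 7 with an A opposite base 1 was counted as well as a match to bases 2 to 8. A match describes these letters and is no measure of binding. Me3 itself differed by -0.02 ± 0.11 (log2, antimiR-195 over hydrogel, ± standard error), with a 95% interval from -0.27 to 0.24.

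Each library held between 16872968 and 22751753 gene counts, and the 8 genes had from 399 counts (Txnrd2) to 42963 counts (Idh2) per library. Antisense and overlapping genes need care, because the strand setting of the counting is not given in the sources used here. Cardiomyocyte markers were high in all libraries, with summed levels of 56429 to 66854 CPM (gene counts scaled to the TMM-normalized library size). The library of antimiR-195 replicate 2 stood apart. Its log2 CPM correlated with the other libraries at 0.944 to 0.970, against 0.978 to 0.991 among the other 7. Mitochondrially encoded genes took 9.42% of its gene counts, against 16.9% to 22.4% elsewhere. Its level relative to the mean of all 8 libraries was lower for long genes. The median was 0.38 (log2) in the shortest of 4 length classes and -0.28 in the longest. AntimiR-195 replicate 3 went the other way, at -0.23 in the shortest class and 0.20 in the longest.

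Nnt (ENSMUSG00000025453, GRCm38 chr13:119335448-119408997, minus strand) showed the widest range between libraries of the 8 genes. Its level was 484, 410, 674 and 356 CPM in hydrogel replicates 1 to 4. It was 389, 206, 450 and 473 CPM in antimiR-195 replicates 1 to 4. Hydrogel replicate 3 was the highest and antimiR-195 replicate 2 the lowest, and the other 6 libraries lay between 356 and 484 CPM, with both groups among them. These values rest on 3775 to 14606 counts per library. Without antimiR-195 replicate 2 the highest over lowest level was 1.90.

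The group means of Nnt were 481 ± 139 CPM in hydrogel and 379 ± 121 CPM in antimiR-195 (SD, n = 4 each). The log2 difference was -0.34 ± 0.27 (95% interval -0.93 to 0.25), with an adjusted p of 0.9999 over all genes in edgeR's quasi-likelihood test with Benjamini-Hochberg adjustment. The difference was thus within the spread between libraries, and its interval still holds a lowering by nearly 1 log2 unit. Leaving out hydrogel replicate 3 brought it to -0.14, and leaving out antimiR-195 replicate 2 to -0.15.

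**Figure D1:**
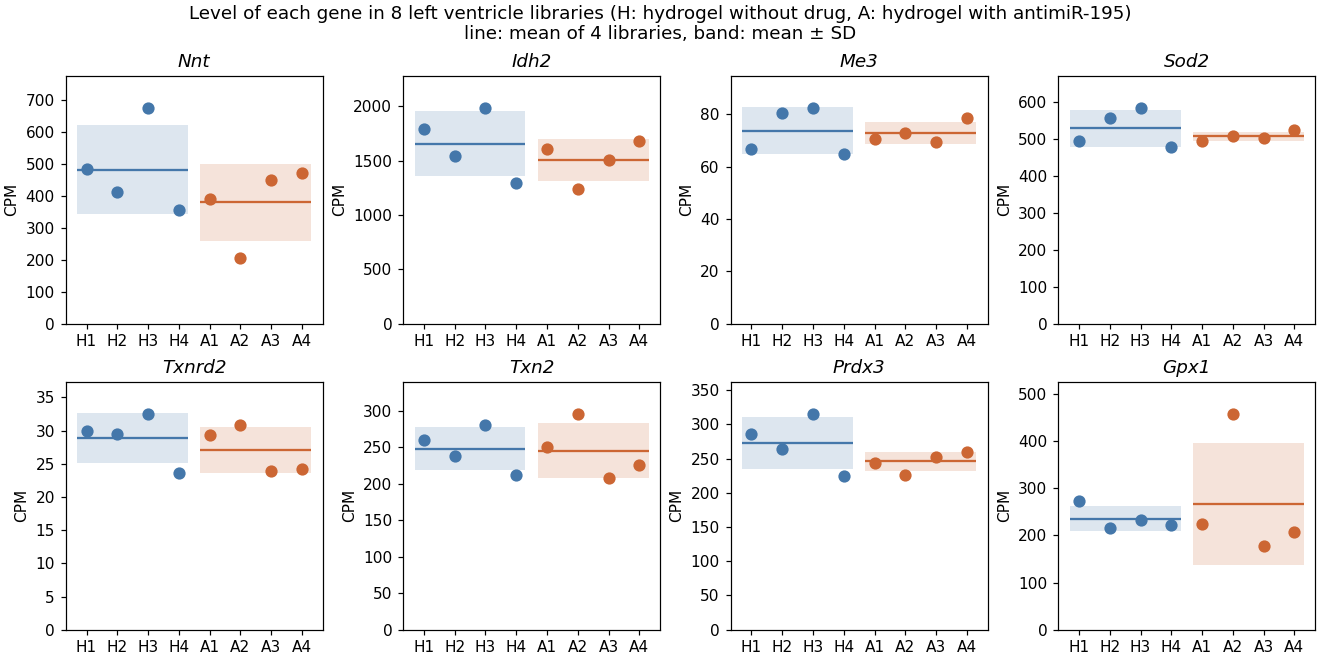
Level (CPM, linear axes from 0) of each of the 8 genes in hydrogel libraries H1 to H4 (blue) and antimiR-195 libraries A1 to A4 (orange), with the mean (line) and mean ± SD (band) of each group of 4. Nnt reaches 674 in H3 and 206 in A2, Gpx1 reaches 458 in A2, and the groups overlap for every gene shown.

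Idh2 (ENSMUSG00000030541, chr7:80094846-80115392, minus strand) had the same highest and lowest library as Nnt over a narrower range. The hydrogel libraries held 1795, 1546, 1983 and 1297 CPM. The antimiR-195 libraries held 1605, 1235, 1507 and 1681 CPM. The groups overlapped, with hydrogel replicate 4 and antimiR-195 replicate 2 both low, and the log2 difference was -0.14 ± 0.17 (interval -0.50 to 0.23).

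Me3 (ENSMUSG00000030621, chr7:89632392-89854359, plus strand), the mitochondrial NADP-dependent malic enzyme, was the member least abundant per length, at the 14624 bases implied by the deposited values. It was at 67.0, 80.4, 82.4 and 65.1 CPM in hydrogel. In antimiR-195 it was at 70.6, 72.8, 69.4 and 78.8 CPM. All antimiR-195 values lay inside the range of the hydrogel values. Me3 overlaps A230065N10Rik and Gm15744 on the opposite strand and is uncertain to that extent.

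Sod2 (ENSMUSG00000006818, chr17:13006846-13040063, plus strand) was the steadiest of the 8. Its hydrogel values were 494, 556, 583 and 479 CPM. Its antimiR-195 values were 496, 507, 503 and 523 CPM, again all within the hydrogel range. The log2 difference was -0.06 ± 0.11, with an interval from -0.31 to 0.19.

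The 3 genes of the thioredoxin branch did not differ between the groups beyond their spread. Prdx3 (ENSMUSG00000024997, chr19:60864051-60874556, minus strand) was at 285, 263, 315 and 225 CPM in hydrogel and at 244, 227, 252 and 260 CPM in antimiR-195. Its hydrogel libraries held both the highest and the lowest of the 8 values, and its log2 difference was -0.15 ± 0.13 (interval -0.43 to 0.14).

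Txn2 (ENSMUSG00000005354, chr15:77915047-77929006, minus strand), which hands electrons to Prdx3, was at 260, 238, 281 and 212 CPM in hydrogel and at 251, 295, 208 and 226 CPM in antimiR-195. Unlike Nnt and Idh2, it was highest in antimiR-195 replicate 2. Its log2 difference was -0.02 ± 0.14 (interval -0.33 to 0.30).

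Txnrd2 (ENSMUSG00000075704, chr16:18426384-18479073, plus strand), the reductase of Txn2, was at 29.9, 29.5, 32.5 and 23.6 CPM in hydrogel and at 29.4, 30.8, 23.9 and 24.3 CPM in antimiR-195. The low values, 23.6 to 24.3 CPM, came from hydrogel replicate 4 and antimiR-195 replicates 3 and 4, so they crossed the groups. Its log2 difference was -0.09 ± 0.14 (interval -0.39 to 0.21). Its values are uncertain to the extent that reads of the opposite strand were counted.

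Gpx1 (ENSMUSG00000063856, chr9:108338903-108340343, plus strand), the glutathione-dependent peroxidase of cytosol and mitochondria, was at 273, 215, 234 and 222 CPM in hydrogel. In antimiR-195 it was at 223, 458, 177 and 207 CPM. A single library, antimiR-195 replicate 2, was high, and the other 3 of that group lay at or below 223 CPM. The log2 difference of 0.18 ± 0.27 (interval -0.41 to 0.76) turned to -0.23 without that library, and the highest over lowest level went from 2.58 to 1.54.

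**Figure D2:**
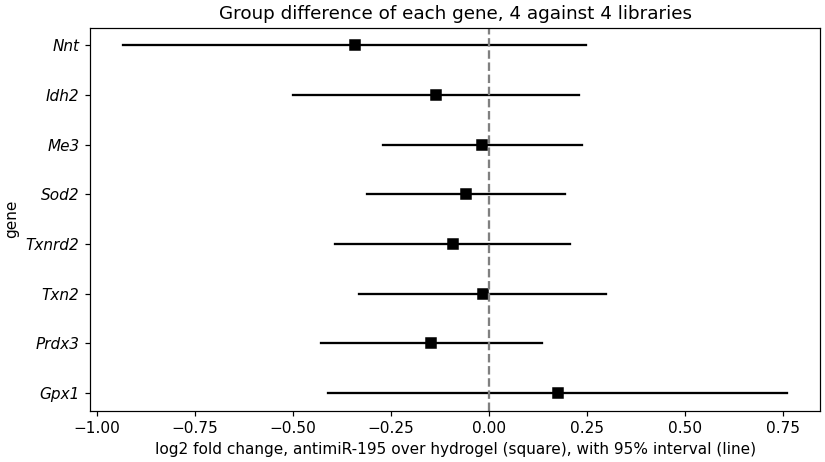
Log2 fold change of antimiR-195 over hydrogel for each of the 8 genes (square), with its 95% interval (line) from edgeR. All 8 intervals hold 0, and those of Nnt (-0.93 to 0.25) and Gpx1 (-0.41 to 0.76) are the widest.

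Of the 8 genes 1 had a higher and 7 a lower mean in antimiR-195, with a median log2 difference of -0.08, against 52.4% of all tested genes with a higher mean and a median of 0.01. None of the 8 was called by edgeR, by DESeq2 or by limma-voom, where 0% of all tested genes were called by edgeR at an adjusted p below 0.05. None was at an unadjusted p below 0.05, which 1.27% of all tested genes reached (178 genes). None had groups that did not overlap, which 1.07% of all tested genes had (150 genes). The lowest unadjusted p of the 8 was that of Nnt.

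To set the genes against mitochondrial content, each was taken relative to the mean log2 CPM of 12 mitochondrial reference genes, such as Cs (citrate synthase), Sdha and Atp5a1. Nnt lay at -0.96 ± 0.30 from that mean in hydrogel and -1.27 ± 0.43 in antimiR-195 (log2, SD, n = 4). The group difference of -0.31 had an exact permutation p of 0.314 over the 70 assignments of the libraries, with an adjusted p of 1 over all genes. The smallest p that these assignments allow is 0.0286, and the lowest among the 8 genes was 0.229 (Prdx3, exact permutation test). Across all genes 109 (0.78%) were below 0.05 without adjustment. In bulk tissue fewer cells of a type and less RNA per cell cannot be told apart.

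Between libraries, hydrogel replicate 3 was the highest for 6 of the 8 genes (Nnt, Idh2, Me3, Sod2, Txnrd2 and Prdx3) and hydrogel replicate 4 the lowest for 4 (Me3, Sod2, Txnrd2 and Prdx3). Hydrogel replicate 3 was also the highest for 5 of 12 mitochondrial reference genes, 5 of 13 mitochondrial thiol and glutathione genes and 1 of 10 cytosolic NADPH sources. The shares over all tested genes were not counted for these 2 libraries, so the counts are a description. AntimiR-195 replicate 2 was the lowest for Nnt and Idh2 and the highest for Txn2 and Gpx1. Of all 13972 tested genes it was the lowest for 33.1% and the highest for 30.8%. Relative to its median over the 8 libraries, Nnt was 0.65 (log2) up in hydrogel replicate 3 and 1.06 log2 units down in antimiR-195 replicate 2, where Gpx1 was 1.04 up. The next value in size was -0.35, for Idh2 in antimiR-195 replicate 2.

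The mitochondrial reference genes deviated in the same libraries by less, at 0.12 in hydrogel replicate 3, -0.16 in hydrogel replicate 4 and -0.24 in antimiR-195 replicate 2 (mean log2 CPM minus the median of 8). The mean of the cardiomyocyte markers lay between -0.10 and 0.06 in all libraries, but its members differed. In antimiR-195 replicate 2, 3 of these 8 markers were highest (Tnnt2, Tnni3 and Actc1) and 4 were lowest (Myh6, Ryr2, Pln and Actn2). Tnni3 was at 8580 CPM there against a median of 5086, and Ryr2 at 498 against 1036. Fibroblast markers were at -0.44 in hydrogel replicate 3, 0.32 in hydrogel replicate 4 and 0.23 in antimiR-195 replicate 2. Members of this list differed, and Dcn was highest in hydrogel replicate 3 (820 CPM). In antimiR-195 replicate 2 Dcn and Pdgfra were lowest, while Col1a1, Col1a2 and Postn were highest. Macrophage markers were at 0.34 in hydrogel replicate 4 and 0.29 in antimiR-195 replicate 2, and neutrophil markers were at 0.93 in the latter. In that library 4 of 8 macrophage markers were highest, while Adgre1, Csf1r and Itgam lay below their medians. Of the neutrophil markers S100a8 (20.5 CPM), S100a9 (31.9 CPM) and Retnlg were highest there. Cxcr2 lay below its median, at 1.48 against 1.55 CPM. S100a8 and S100a9 are short, with implied lengths of 392 and 522 bases. The summed level of the 5 neutrophil markers was 26.0 to 31.8 CPM in hydrogel and 23.3 to 69.1 CPM in antimiR-195. That of the 6 fibroblast markers was 4251 to 7935 CPM in hydrogel and 5997 to 8097 CPM in antimiR-195. The 8 macrophage markers summed to 1335 to 1833 CPM in hydrogel and 1125 to 1866 CPM in antimiR-195, and no marker of the 3 cell types was at 0 in any library. The part of these cell types in the values of the 8 genes was not tested.

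**Figure D3:**
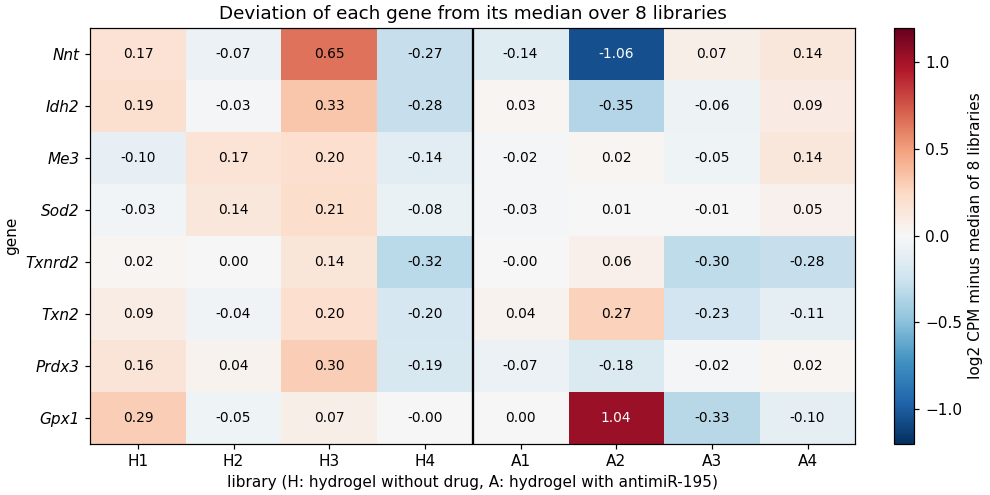
Log2 CPM of each of the 8 genes minus its median over the 8 libraries, by library (H1 to H4 hydrogel, A1 to A4 antimiR-195), with the value in each cell. Nnt stands at 0.65 in H3 and -1.06 in A2, Gpx1 at 1.04 in A2, and H3 is at or above the median for all 8 genes.

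Gene length moved with the difference of antimiR-195 replicate 2 from the other libraries. Nnt, with a length of 7037 bases implied by the deposited RPKM, lay -1.13 (log2) from the mean of the other 7, where the trend over all genes of that length was at -0.28. Trend values here are deviations from the mean of all 8 libraries, antimiR-195 replicate 2 included, so the 2 scales differ slightly. Gpx1, of 1041 bases, lay at 1.06, where the trend was at 0.56. Prdx3, of 1478 bases, lay at -0.21 against a trend of 0.40, and Me3, of 14624 bases, at -0.01 against -0.42. With the trend removed in every library, the highest over lowest level of Nnt was 2.91 in place of 3.27, and that of Gpx1 1.54 in place of 2.58. The same removal widened it for 5 genes, from 1.27 to 1.67 for Me3, 1.40 to 1.66 for Prdx3, 1.61 to 1.68 for Idh2, 1.42 to 1.53 for Txn2 and 1.22 to 1.24 for Sod2. For Txnrd2 it was 1.37 in place of 1.38.

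**Figure D4:**
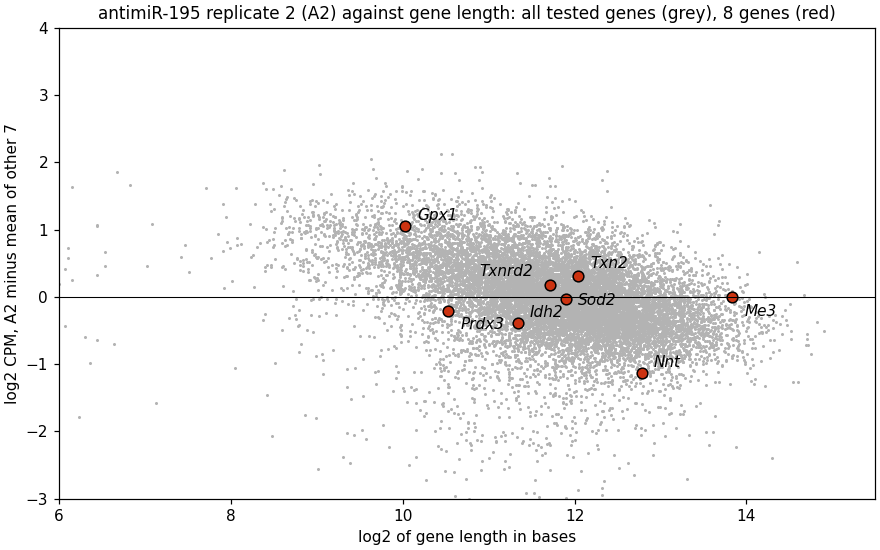
Log2 CPM in antimiR-195 replicate 2 (A2) minus the mean of the other 7 libraries, against log2 gene length, for all tested genes (grey) and the 8 genes (red), with 16 genes beyond the axes not drawn. Grey points slope down with length, Nnt lies at -1.13 and Gpx1 at 1.06.

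The SD of log2 CPM over the 8 libraries was 0.49 for Nnt, or 0.30 without antimiR-195 replicate 2. Since Nnt was chosen for its range between libraries, this only describes it. For Gpx1 the SD was 0.41, or 0.19 without that library. It was 0.23 for Idh2, or 0.20 without it, and from 0.10 (Sod2) to 0.18 (Txnrd2 and Txn2) for the other 5.

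**Figure D5:**
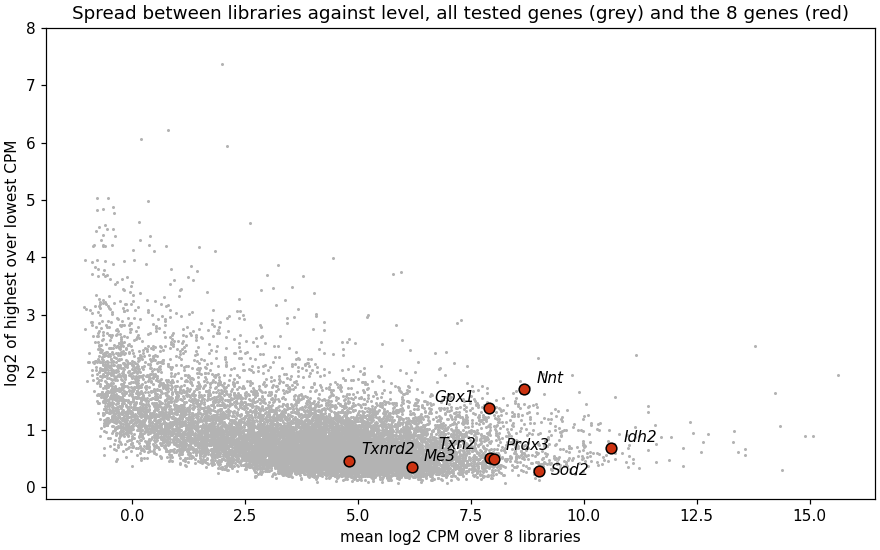
Log2 of the highest over the lowest CPM of 8 libraries against mean log2 CPM, for all tested genes (grey) and the 8 genes (red), with 20 genes beyond the axes not drawn. Nnt, chosen for this value, and Gpx1 lie higher than the other 6 genes, and Sod2 and Me3 lie lowest; with antimiR-195 replicate 2 left out Nnt would be at a ratio of 1.90 and Gpx1 at 1.54.

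Per length, as RPKM deposited by the authors (counts scaled by gene length and library size), the 8 genes spanned more than 100-fold. Idh2 was highest, at 631 ± 99.1 RPKM in hydrogel and 587 ± 68.3 in antimiR-195 (SD, n = 4). Gpx1 followed with 224 ± 26.5 and 260 ± 132, and Prdx3 with 182 ± 20.7 and 168 ± 6.33, and these neighbours overlapped between libraries. Sod2 was at 136 ± 8.52 and 134 ± 3.00, below every Prdx3 value. Nnt, at 67.3 ± 17.5 and 54.1 ± 16.4, and Txn2, at 58.2 ± 5.51 and 58.9 ± 10.4, did not differ beyond their spread. Txnrd2 (8.49 ± 0.88 and 8.15 ± 1.25) and Me3 (4.98 ± 0.46 and 5.03 ± 0.27) were lowest, with no overlap between them. This order rests on the gene lengths implied by the deposited RPKM, 14624 bases for Me3, 7037 for Nnt and 3824 for Sod2. Their longest coding transcripts in GENCODE M21 have 4485, 3464 and 5861 bases, so the order could differ with transcript lengths.

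Ratios within a library cancel library size, and 5 were formed after values were seen. Nnt over Idh2 (RPKM) was 0.0615 in antimiR-195 replicate 2 and 0.0891 to 0.125 in the other 7. Nnt over Gpx1 was 0.0668 there and 0.237 to 0.427 elsewhere. Gpx1 over Prdx3 was 2.87 there and 0.996 to 1.40 elsewhere. Within the thioredoxin branch Prdx3 over Txn2 ran from 2.18 to 3.45 and Txnrd2 over Txn2 from 0.131 to 0.155, the narrowest of the 5. Between groups none of the 5 ratios differed beyond the spread, with exact permutation p from 0.229 to 0.8286.

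The pattern of Nnt over the 8 libraries was compared with that of 13173 tested genes by Pearson's r, as a description in which all points share 2 extreme libraries. Among the 5 genes of highest r were Tmcc1 (0.982), Nfs1 (0.981), the mitochondrial cysteine desulfurase of iron-sulfur cluster assembly, P2ry1 (0.980), an ADP receptor, and Sgsm3 (0.977). Without hydrogel replicate 3 and antimiR-195 replicate 2 the r of Tmcc1 was 0.834, that of Nfs1 0.849, that of P2ry1 0.842 and that of Sgsm3 0.787. The lowest r belonged to Kif22 (-0.984), a mitotic kinesin, Litaf (-0.983), Cenpk (-0.973), a kinetochore protein, Loxl1 (-0.971), an elastin cross-linking enzyme, and Vasn (-0.967). Without the same 2 libraries their r was -0.901, -0.860, -0.663, -0.896 and -0.903, in that order. In all 144 genes had r above 0.9 and 164 below -0.9.

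Among the other 7 genes r with Nnt was 0.90 for Idh2, 0.85 for Prdx3, 0.50 for Sod2, 0.35 for Me3, 0.02 for Txnrd2, -0.19 for Txn2 and -0.70 for Gpx1. Idh2 ranked 143rd of the 13173 genes and Prdx3 364th. Without antimiR-195 replicate 2 all 7 values were positive, from 0.22 for Gpx1 to 0.94 for Prdx3. Over the 8 libraries the r of the 12 mitochondrial reference genes with Nnt ran from -0.26 (Cox4i1) to 0.958 (Atp5a1). Vdac1 (0.957), Ndufs1 (0.946) and Uqcrc2 (0.907) also lay above Idh2.

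Of the other 7 genes Idh2 and Prdx3 followed Nnt most closely. The 150 bases before their start sites are shown (RefSeq, GRCm38.p6, minus strand of both chromosomes, 5′ to 3′ along the gene) with GC boxes, the GGGCGG motif of Sp1 in either strand, in capitals. No promoter window of Nnt itself was available.
Idh2, chr7:80115351-80115500: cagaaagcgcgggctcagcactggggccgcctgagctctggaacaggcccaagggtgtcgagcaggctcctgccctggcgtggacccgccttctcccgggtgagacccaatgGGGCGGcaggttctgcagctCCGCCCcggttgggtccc
Prdx3, chr19:60874539-60874688: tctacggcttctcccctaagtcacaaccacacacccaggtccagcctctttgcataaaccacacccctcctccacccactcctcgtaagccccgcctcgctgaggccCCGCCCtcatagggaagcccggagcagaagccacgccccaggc
Idh2 held 2 GC boxes in this stretch and Prdx3 held 1. The RefSeq start sites differ from the ends of the gene coordinates given above. By those coordinates Idh2 starts at 80115392, so both of its boxes (80115383-80115388 and 80115363-80115368) lie inside the gene. The Prdx3 box (60874576-60874581) lies before the gene, which starts at 60874556. RefSeq windows from 250 bases before to 50 after the start were matched for 7 of the 8 genes, all but Nnt. GC boxes were found in 6 of these, all but Me3, and in 35.7% of all 32851 promoter windows. The antioxidant response element TGACNNNGC, the ERR motif TCAAGGTCA and the NRF1 motif (GCGCA and GCGC, 1 base apart), searched on both strands, had 0 matches in the 7 windows, and 12.4%, 0.42% and 4.60% of all windows held them. GC boxes were searched after those 3 motifs had given no match, and no match says only that these letters are not in the window.

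The 3 tested genes on each side of Nnt on chromosome 13 were set beside it. Emb and Mrps30 are among those at lower coordinates, and Paip1, 4833420G17Rik and 3110070M22Rik lie at higher ones. The r of the 6 genes with Nnt ran from -0.74 (4833420G17Rik) to 0.41 (Paip1), and from -0.59 (Emb) to 0.61 (Paip1) without antimiR-195 replicate 2. The nearest, Paip1, had a highest over lowest level of 1.35, and Mrps30, a mitochondrial ribosomal protein, 1.40.

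Of 6 genes in which C57BL/6 substrains are reported to differ, besides Nnt, 3 were abundant enough to test and none was called by edgeR. Wdfy1 differed by 0.21 ± 0.14, Ide by -0.09 ± 0.19 and Cyfip2 by -0.08 ± 0.22 (log2 ± standard error, antimiR-195 over hydrogel). Their highest over lowest levels were 1.44, 1.82 and 2.07. Crb1 (0.132 to 0.956 CPM) and Nlrp12 (0 to 0.228 CPM) were too low, and Entpd4, which has a near-identical copy that can take its reads, was listed at 0 counts in all libraries.

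The other genes of the pathway were described by list, and no gene of any list was called by edgeR over all genes. A list of 11 further mitochondrial NADPH and one-carbon enzymes also held the NAD-dependent enzymes Idh3a, Idh3b, Idh3g and Me2. Of the 11 genes 4 had a higher and 7 a lower mean in antimiR-195 (median log2 difference -0.04). Idh3a, Idh3b and Idh3g were among the lower genes, Idh3g at the median, and Me2 was among the higher ones. Mthfd2, the methylene-tetrahydrofolate dehydrogenase of mitochondria, differed by 0.43 ± 0.18 and Glud1, glutamate dehydrogenase, by -0.14 ± 0.12. Of 13 mitochondrial thiol and glutathione genes 7 were higher and 6 lower (median 0.00). Among them Mgst1, a membrane glutathione transferase, differed by -0.32 ± 0.13 and Gsr, glutathione reductase, by 0.19 ± 0.15. Mthfd2 and Mgst1, the only 2 of these 24 genes below 0.05 before adjustment in edgeR, both had an adjusted p of 0.9999.

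Outside the mitochondrion, 8 of 10 cytosolic NADPH sources had a higher mean in antimiR-195 (median 0.09). Among them Nadk, the NAD kinase, was at 0.13 ± 0.10, with an unadjusted p of 0.22 in edgeR. It was the only 1 of the 10 whose groups did not overlap (38.2 to 44.2 against 44.7 to 47.6 CPM), which 1.07% of all tested genes showed. Idh1, the cytosolic isocitrate dehydrogenase, was at -0.13 ± 0.11. Of 22 cytosolic and secreted antioxidant genes 13 were higher (median 0.04), with Prdx4, a peroxiredoxin of the secretory pathway, at 0.36 ± 0.25 and Gpx8 at 0.24 ± 0.16. Of 8 NADPH oxidase genes 3 were higher (median -0.08), with Rac2 at -0.17 ± 0.17 and Ncf4 at -0.21 ± 0.24, both parts of the phagocyte oxidase. Of the 12 mitochondrial reference genes 5 were higher (median -0.07), with Vdac1, the outer membrane channel, at -0.13 ± 0.14. Without antimiR-195 replicate 2 the medians of the cytosolic NADPH and antioxidant lists turned to -0.04 and -0.05, that of the thiol list to -0.13 and that of the NADPH oxidase list to -0.23, which was 0.05 without hydrogel replicate 4. Leaving out antimiR-195 replicate 2 also brought Prdx4 to 0.0172, Gpx8 to 0.0384, Gsr to 0.0781, Glud1 to -0.0725, Idh1 to -0.0778 and Vdac1 to -0.0541. It brought Rac2 to -0.33 and Ncf4 to -0.41, which were at -0.0655 and 0.00821 without hydrogel replicate 4. Without hydrogel replicate 3 Nadk was at 0.0810 and Mgst1 at -0.22.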

How the data were processed

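Left ventricle RNA was profiled in 8 libraries, made per the labels' protocols with TRIzol and a TruSeq stranded mRNA kit. Per the submitters' processing notes, STAR, HTSeq and DESeq were used with GRCm38. The sources used here give no versions, annotation release or strand setting. The authors deposited whole-number HTSeq counts per Ensembl gene and RPKM values. HTSeq summary lines entered neither library sizes nor tests. Reads outside genes were 6.38% to 7.55% of the uniquely aligned reads and alignments to several places 42.1% to 47.8% of all lines.

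Groups came from the drug label. Replicates were numbered in accession order and pair nothing. Genes kept by filterByExpr were scaled by TMM factors of 0.953 to 1.04 and tested with edgeR 4.0.16 (R 4.3.3), quasi-likelihood, two-sided, with Benjamini-Hochberg adjustment over all 13972 genes and a threshold of 0.05. DESeq2 1.42.0 and limma 3.58.1 were alternatives. Log2 CPM used a prior count of 2, and log2(RPKM + 0.1) was formed from the RPKM values the authors deposited. Gene lengths are those implied by deposited counts and RPKM. Names and 3′ UTRs came from GENCODE M21, which named 36345 of the 38293 identifiers. A second M21 identifier named Nnt was not analysed here. Scripts were tested on simulated data, and figures drawn with matplotlib.

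The members and gene lists were chosen with earlier results of these data known. Named genes were the 8 members, the 2 of smallest p in each pathway list, the 5 tested genes of highest and of lowest r with Nnt with mean log2 CPM not below 0, the 3 tested genes on each side of it, and the substrain list. A few genes that this rule also gave are not reported here. Alternatives were other scalings, tools and filters, a cardiomyocyte covariate or reference, RPKM, and leaving out each library. Chosen after values were seen were the removal of the length trend, a lowess (span 0.3) of each library over log2 length, the ratios between members, the counts of high and low r, and the sequence searches. The 95% intervals are those of the edgeR fit.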

Additional observations from a re-analysis of the deposited data

Results flagged for a closer look

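The level of Gpx1 in antimiR-195 replicate 2, 458 CPM, stood apart from the other 3 libraries of its group, which lay between 177 and 223 CPM. Its gap to the nearest of them was 0.835 of the whole range of the group, just above Dixon's 95% critical value for 4 values. On CPM without TMM factors the gap was 0.822 of the range, under that critical value. The 8 genes in both groups gave 16 such checks, and chance flags about 1 in 20 groups. In the same library mitochondrially encoded genes took 9.42% of the gene counts and short genes were relatively high, and the part of either in the Gpx1 level was not tested beyond the removal of the length trend given above.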

How the results depend on the processing

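No gene was called in any of the 16 alternative analyses of antimiR-195 against hydrogel, DESeq2, limma-voom and the removal of the length trend among them. Genes at an unadjusted p below 0.05 numbered 178 in the main analysis, 193 with DESeq2, 170 with limma-voom, 428 with no filter on low counts, and 104 (without hydrogel replicate 3) to 352 (without antimiR-195 replicate 3) when a library was left out. Without hydrogel replicate 4 they were 311 and without antimiR-195 replicate 4 335. The log2 difference of Nnt stayed negative in all of these, from -0.47 (without antimiR-195 replicate 4) to -0.14 (without hydrogel replicate 3) over the left-out libraries. The sign of differences near 0 turned: on log2(RPKM + 0.1) Me3 was at 0.0168 and Txn2 at 0.00707, and with the length trend removed Me3 was at 0.00441. Leaving out a library gave -0.0772 to 0.0415 for Me3, -0.13 to 0.0547 for Txn2, -0.23 to 0.33 for Gpx1 and -0.41 to 0.00821 for Ncf4. Relative to cardiomyocyte markers in place of mitochondrial reference genes Me3 was at -0.0196, Sod2 at -0.0637 and Txn2 at -0.0298. Relative to the mitochondrial genes, leaving out a library gave -0.00828 to 0.0902 for Me3, -0.0521 to 0.0337 for Sod2, -0.11 to 0.13 for Txn2, -0.22 to 0.31 for Gpx1 and -0.15 to 0.0464 for Txnrd2. The cause of these turns was not tested. No paired analysis was possible because the replicate numbers follow accession order and link no libraries. Depth limits Crb1, Nlrp12 and other low genes, not the 8 genes described here.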

Other observations

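AntimiR-195 replicate 2 was the highest of the 8 libraries for 12 of 22 cytosolic and secreted antioxidant genes, for 6 of 13 mitochondrial thiol and glutathione genes and for 5 of 10 cytosolic NADPH sources. These counts were not tested against the shares over all 13972 tested genes. Of those genes the same library was the highest for 30.8% and the lowest for 33.1%. It was also the highest for 4 of 8 macrophage, 3 of 5 neutrophil and 3 of 5 smooth muscle and pericyte markers. It was the lowest for 4 of the 22 antioxidant genes and for 9 of the 12 mitochondrial reference genes. Among the antioxidant genes Prdx4 reached 56.2 CPM there against a median of 27.8 over the 8 libraries, Gpx7 60.6 against 27.6 and Txn1, cytosolic thioredoxin, 268 against 139. In the pentose phosphate pathway, the cytosolic source of NADPH, Taldo1 (transaldolase) was at 197 CPM there against a median of 107. Txnip, which binds and inhibits thioredoxin, was lowest in the same library, at 184 CPM against a median of 405. The cause of these values was not tested.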
